A study of Mus musculus with 16 samples.

Results

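The collagen genes of mouse colorectal liver metastases were examined across 4 treatment groups. Members were all genes of the deposited tables whose symbol, looked up by Ensembl identifier in the GRCm39 annotation, is Col followed by a number, the letter a and a number. There were 44 such genes among the 21959 genes listed, and every collagen gene of that form in the annotation was listed. The tumor tissue came from male wild-type C57BL/6 mice, 6 weeks old when cells of MC38, a single mouse colon adenocarcinoma line, were injected into the lower part of a divided spleen. The control group received PBS. A group received SB525334, a small-molecule inhibitor of the type I TGF-β receptor (ALK5), at 20 mg/kg by daily gavage, and another received KN046, an antibody that binds both PD-L1 and CTLA-4, at 10 mg/kg into the peritoneum 2 times a week. The combination group received both agents at those doses. Each group had 4 samples, giving 16 in all, and mRNA libraries of the bulk tissue were sequenced and counted as reads per gene.

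Collagens are the structural proteins of the extracellular matrix, and each is a trimer of chains wound into a triple helix that requires glycine at regular intervals, as Gly-X-Y units. Fibrillar collagens form the fibers of interstitial matrix, type IV forms the sheet of basement membranes, and type VI forms beaded microfilaments around cells. The FACIT collagens (fibril-associated collagens with interrupted triple helices) sit on the surface of fibrils, while the multiplexins link basement membranes to the matrix beneath. In liver, fibroblasts and activated stellate cells make most of the fibrillar collagen, and TGF-β is a known inducer of its genes. The study's main question was whether PET/CT imaging of cancer-associated fibroblasts can follow the response of metastases to treatment. It also asked whether blocking the TGF-β receptor improves their response to KN046. The matrix genes were therefore compared between each treatment and control, and between the combination and each single agent.

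The defining feature of these genes can be read in their coding sequence. The 6 members that were lower with the combination than in control are shown, with Col13a1, which fell under SB525334 alone, Col3a1, the most abundant member, and Col18a1, the other multiplexin. From each, the first 54 bases of a repeat segment are given 5′ to 3′ on the coding strand, with the glycine codons in capitals, so that each capital triplet opens 1 of 6 Gly-X-Y units. Coordinates are GRCm39, and the sequences are from the GENCODE M39 transcripts.
Col1a2, chr6:4533742-4533795, plus strand, coding exon 40: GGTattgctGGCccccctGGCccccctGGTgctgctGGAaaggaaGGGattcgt
Col3a1, chr1:45380026-45380079, plus strand, coding exon 39: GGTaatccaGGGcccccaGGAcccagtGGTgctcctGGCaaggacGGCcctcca
Col4a3, chr1:82656815-82656868, plus strand, coding exon 30: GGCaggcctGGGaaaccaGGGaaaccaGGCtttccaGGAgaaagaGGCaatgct
Col4a4, chr1:82467530-82467583, minus strand, coding exon 29: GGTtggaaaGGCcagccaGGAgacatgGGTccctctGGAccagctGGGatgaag
Col12a1, chr9:79511739-79511792, minus strand, coding exon 62: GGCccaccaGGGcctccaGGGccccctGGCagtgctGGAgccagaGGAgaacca
Col14a1, chr15:55364846-55364899, plus strand, coding exon 44: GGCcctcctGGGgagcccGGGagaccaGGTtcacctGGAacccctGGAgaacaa
Col15a1, chr4:47279814-47279867, plus strand, coding exon 16: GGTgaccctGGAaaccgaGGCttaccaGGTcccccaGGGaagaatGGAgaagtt
Col18a1, chr10:76910262-76910315, minus strand, coding exon 15: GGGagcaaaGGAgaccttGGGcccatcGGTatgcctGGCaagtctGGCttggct
Col13a1, chr10:61698497-61698550, minus strand, coding exon 30: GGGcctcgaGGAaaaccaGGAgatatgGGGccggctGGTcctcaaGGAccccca

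The classes differed in how these repeats were arranged, counting runs of at least 3 triplets in the canonical transcript. Fibrillar members had 327 to 365 triplets, of which the longest unbroken run held 216 to 344. Type IV members had as many, 345 to 416, but in 17 to 24 separate runs, none longer than 66 triplets. The FACIT members Col12a1 and Col14a1 matched each other, with 78 triplets in 4 runs and a longest run of 32, which is 7.63% of the Col12a1 codons and 13.0% of those of Col14a1. Both multiplexins had a longest run of 30 triplets, in 12 runs for Col15a1 and 14 for Col18a1. Of coding exons lying wholly inside a repeat, 59.2% were exactly 54 bases long in the fibrillar class and 8.33% in type IV.

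Read depth was similar across the series, with 18368994 to 23877131 counts per sample. Control samples 1 and 2, and likewise 3 and 4, were far more alike than any other pair within a group. The median chi-square of their counts per gene was 1.25 and 0.956, against at least 2.82 in all other pairs, although 24.8% and 18.1% of genes still differed beyond 95% of sampling noise. That excess cannot tell separate mice from repeats of 1 tumor. The control group was kept as 4 samples in the main fit. The results below were also computed with each pair summed to 1 sample. The labels do not say whether samples of a group came from separate mice, so p-values measure the spread between these samples, which may be partly technical. Hepatocyte RNA differed by group. The summed level of 15 hepatocyte markers was 14400 to 15890 CPM (counts scaled to a fixed library total) in control, 369 to 1813 under SB525334, 8830 to 18400 under KN046 and 57.0 to 69.5 under both. The corresponding sum over 13 fibroblast markers other than collagens was 1832 to 2043, 2064 to 2273, 1861 to 2636 and 1781 to 2532 CPM in the same order. Most of it was Fbln2, with group means of 1108, 1187, 1399 and 1285 CPM, so the sum need not follow the other fibroblast markers. In bulk tissue, fewer cells of a type and less RNA per cell cannot be told apart.

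Together the collagen genes had a similar summed level in the bulk tissue of every group. Their summed level was 15132 ± 1250 CPM (SD, n = 4) in control, 16626 ± 2620 under SB525334, 15723 ± 2150 under KN046 and 16834 ± 3510 under both, and the ranges overlapped in all pairs of groups. Fibrillar genes held 56.4% ± 1.12 of collagen reads in control, 54.9% ± 2.90 under SB525334, 50.2% ± 3.75 under KN046 and 56.1% ± 2.67 under both. Type VI was the next class, with means of 28.1%, 32.1%, 32.7% and 31.0% in the same order. Its share was at most 28.3% in the control samples and at least 28.7% in the treated ones. The multiplexin share went the other way, from 2.76% ± 0.0860 in control to 2.00% ± 0.315 with SB525334 and 1.67% ± 0.176 with the combination, with no overlap between control and either group, while the KN046 samples, at 1.92% to 3.04%, overlapped control.

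**Figure D1:**
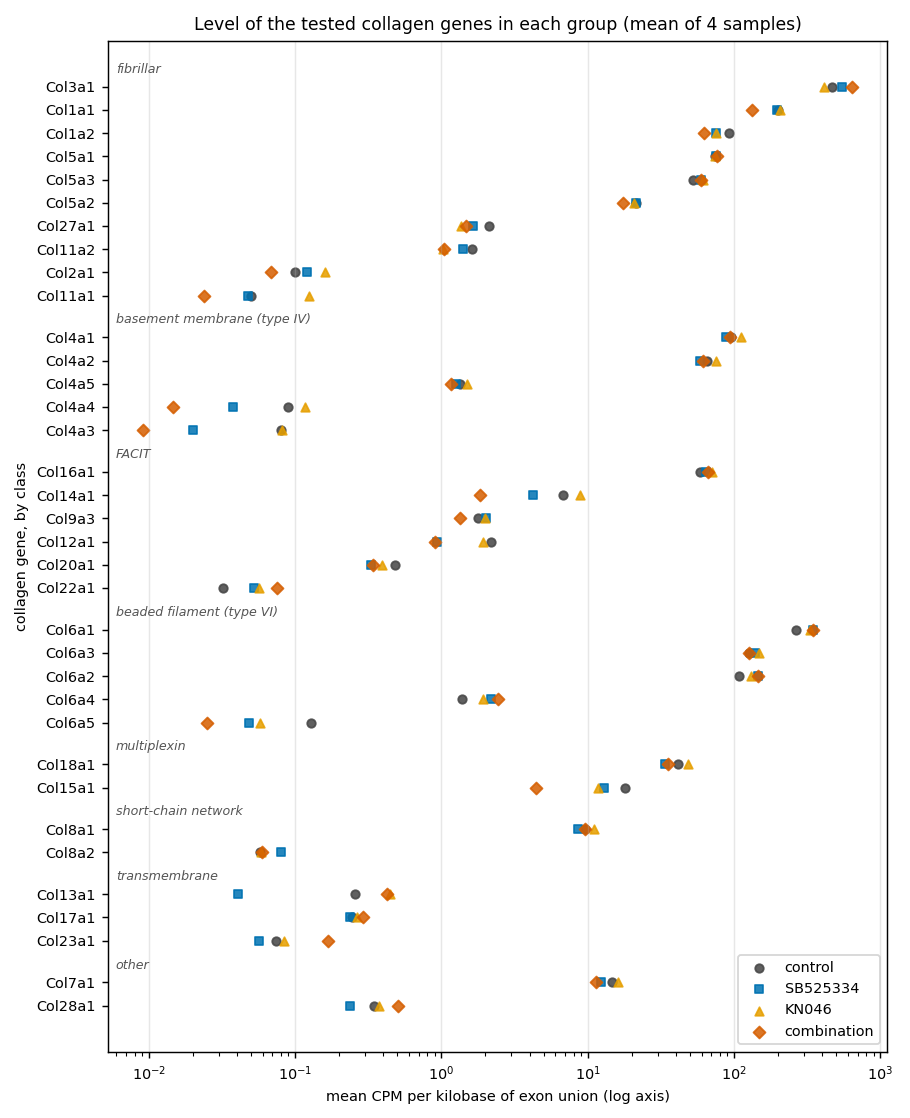
Mean level of each of the 35 tested collagen genes in CPM per kilobase of exon union on a log axis, by class, with 1 symbol per treatment group (n = 4 samples each). Levels span from Col3a1 at the top of the fibrillar class to Col4a3 at the bottom of type IV and the 4 group symbols of Col3a1, Col5a1 and Col16a1 lie closer together than those of Col14a1, Col15a1, Col4a3 and Col13a1.

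Levels between genes were compared per kilobase of exon union. The highest over all 16 samples was Col3a1, the single chain of type III fibrils, at 514.9 CPM per kilobase, followed by the type VI chain Col6a1 at 320.7. Then came Col1a1, the major chain of type I collagen, at 182.9, and the type VI chains Col6a3 at 135.3 and Col6a2 at 132.5. Col4a1, an obligate chain of all basement membranes, stood at 97.4, Col1a2, the partner chain of Col1a1, at 76.1 and Col5a1, which sets the diameter of type I fibrils, at 74.7. This order depends on the length used. Divided by the canonical transcript instead, Col6a2 moved from rank 5 to 3 and Col1a2 from rank 7 to 5, and Col16a1 took the place of Col5a1 among the 8 highest, while Col3a1 and Col6a1 kept the first places.

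**Figure D2:**
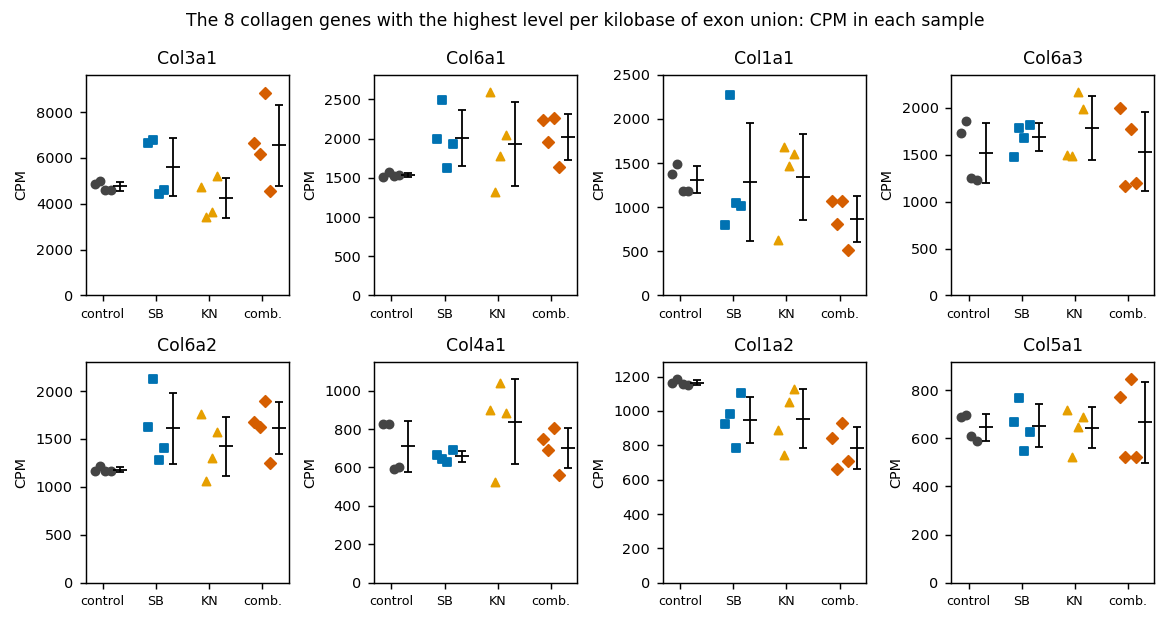
CPM in each of the 16 samples for the 8 collagen genes with the highest level per kilobase of exon union. Points are samples 1 to 4 of a group from left to right and bars are the mean and SD (n = 4). All 4 combination samples of Col1a2 lie below all 4 control samples, and for each of the 8 genes the treated groups overlap one another.

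Among the abundant members that passed no test, Col1a1, Col6a1 and Col6a2 had treated groups without overlap with control. Col1a1 had 1374, 1494, 1186 and 1188 CPM in the control samples, 794.7, 2273, 1047 and 1013 with SB525334, 630.5, 1685, 1463 and 1601 with KN046, and 1070, 814.8, 1066 and 515.6 with both agents. All combination samples were below all control samples, but the difference did not pass (log2 fold change -0.60 ± 0.32 SE, edgeR adjusted p = 0.294). Col6a1 had 1506, 1575, 1523 and 1542 CPM in control, 1996, 2490, 1625 and 1927 with SB525334, 2595, 1317, 1774 and 2047 with KN046, and 2239, 1952, 2264 and 1634 with both agents. The SB525334 and combination samples were all above control, by 0.39 ± 0.18 and 0.40 ± 0.18 on the log2 scale, with adjusted p of 0.245 and 0.199 from edgeR.

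The other type VI chains did likewise or varied without order. Col6a2 had 1168, 1223, 1161 and 1168 CPM in control, 1629, 2121, 1278 and 1409 with SB525334, 1761, 1057, 1306 and 1573 with KN046, and 1677, 1630, 1899 and 1248 with both agents. As for Col6a1, every SB525334 and combination sample exceeded every control sample, with a log2 fold change of 0.45 in both (SE 0.18, edgeR adjusted p = 0.147 and 0.123). Col6a3, the longest of these chains, had 1734, 1857, 1254 and 1234 CPM in control, 1478, 1779, 1673 and 1813 with SB525334, 1499, 1486, 2168 and 1986 with KN046, and 1997, 1165, 1773 and 1197 with both agents. Its groups all overlapped.

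Col4a1 had 824.9, 824.5, 591.7 and 601.9 CPM in control, 665.6, 643.6, 629.7 and 691.3 with SB525334, 901.2, 525.8, 1041 and 885.8 with KN046, and 750.1, 688.9, 805.8 and 561.0 with both agents. Col5a1 had 690.0, 696.4, 608.2 and 587.5 CPM in control, 669.5, 765.6, 549.0 and 626.0 with SB525334, 719.4, 523.8, 647.0 and 687.1 with KN046, and 773.2, 520.7, 848.1 and 520.8 with both agents. For both genes all groups overlapped. Against control, the 95% interval of the combination's log2 fold change was -0.39 to 0.36 for Col4a1 and -0.30 to 0.38 for Col5a1.

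With SB525334 against control, 2 weakly expressed members were lower, Col13a1 and Col4a3. They were 2 of the 35 tested collagen genes, or 5.71%, and passed an adjusted p of 0.05 in edgeR's quasi-likelihood test. Of all 13968 genes tested, 9.61% passed in either direction and 9.22% were lower, so the collagen share was below the background. The median log2 fold change was -0.11 over the collagens and 0.00 over all genes. No member was higher by edgeR, DESeq2 or limma, and 2 were higher at an unadjusted p under 0.05. The samples did not overlap for 5 members that were lower and 3 that were higher, against 13.3% and 5.0% of all genes.

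The first of the pair was Col13a1, a transmembrane collagen of cell adhesion sites. It had 1.84, 1.61, 0.761 and 0.679 CPM in control and 0.271, 0.239, 0.258 and 0.00 with SB525334, against 3.09, 0.681, 2.52 and 2.18 with KN046 and 1.95, 1.99, 2.57 and 1.51 with the combination. The SB525334 samples were all below every sample of every other group. Against control it changed by -2.64 ± 0.60 on the log2 scale (SE, edgeR adjusted p = 0.00561). The counts were few, 18 in the SB525334 group and 104 in control, a ratio of 15.3% with a 95% counting interval of 8.73% to 25.4%.

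The other was Col4a3, a chain of the specialised basement membranes of kidney glomerulus and lung. It had 0.962, 1.04, 0.710 and 0.470 CPM in control, 0.181, 0.319, 0.129 and 0.172 with SB525334, 1.01, 0.778, 0.615 and 0.831 with KN046, and 0.154, 0.110, 0.0546 and 0.0471 with both agents. All SB525334 and all combination samples were below all control and KN046 samples. With SB525334 the log2 fold change was -1.96 ± 0.42 (edgeR adjusted p = 0.00337), from 19 counts against 67, a ratio of 25.1% (14.2% to 42.2%). Both calls held when control pairs were summed and in each fit that left out 1 sample. Hepatocyte markers fell in the same comparison, 15 of 15 by edgeR, as did 5 of 9 endothelial, 5 of 7 sinusoidal endothelial, 2 of 7 tumor epithelial, 1 of 9 stellate and 1 of 8 leukocyte markers. The part of these cells in the collagen results was not tested.

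KN046 alone changed no collagen gene past the threshold. None of the 35 tested members passed against control in edgeR, DESeq2 or limma, whereas 4.0% of all genes did, 2.4% lower and 1.6% higher. At an unadjusted p under 0.05 there were 2 lower and 1 higher. The median log2 fold change was 0.15 over the collagens and -0.03 over all genes. Of 35 members, 1 was lower without overlap between samples, and none was higher, against 6.65% and 4.94% of all genes. That lower member was Col1a2, described next, at -0.29 ± 0.14 on the log2 scale (edgeR adjusted p = 0.239). The 95% interval of the change was -0.64 to 0.71 for Col1a1 and -0.59 to 0.26 for Col3a1. Among the markers, edgeR called 2 of 8 leukocyte and 1 of 13 fibroblast genes lower with KN046 than in control. It called 1 of 7 sinusoidal endothelial markers higher and 0 of 15 hepatocyte markers in either direction. The part of these cells was not tested.

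**Figure D3:**
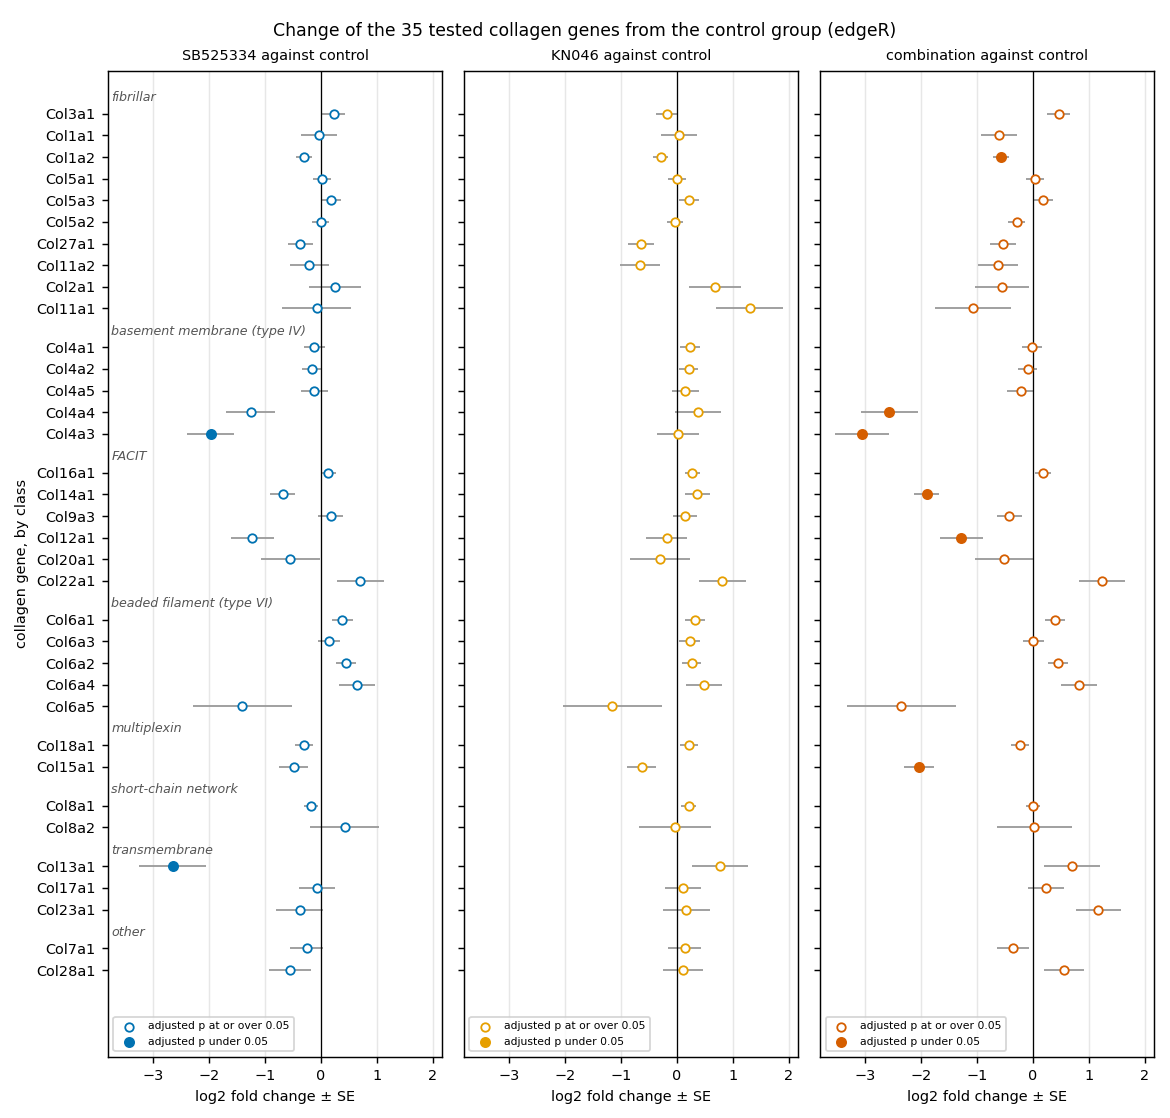
Log2 fold change with its standard error (horizontal lines) of the 35 tested collagen genes from control, 1 panel per treatment and genes grouped by class. Filled points pass an edgeR adjusted p of 0.05: 2 with SB525334, none with KN046 and 6 with the combination, all of them to the left of 0.

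The combination lowered 6 collagen genes against control and raised none. They were the FACIT members Col14a1 and Col12a1, the multiplexin Col15a1, the type IV chains Col4a3 and Col4a4, and the fibrillar chain Col1a2. That is 17.1% of the 35 tested, where 11.1% of all genes passed in either direction and 9.74% were lower. The median log2 fold change was -0.22 over the collagens and 0.01 over all genes. No member was higher by edgeR, DESeq2 or limma, and 6 were higher at an unadjusted p under 0.05. Without overlap between samples, 7 members were lower and 4 higher, against 12.1% and 5.32% of all genes.

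Col14a1, a FACIT collagen that coats the surface of interstitial fibrils, had 51.2, 51.5, 44.2 and 43.6 CPM in control, 29.3, 26.2, 27.4 and 36.1 with SB525334, 38.8, 57.9, 93.1 and 57.4 with KN046, and 12.8, 8.001, 14.7 and 15.7 with both agents. The combination samples were below every sample of the other groups, and the SB525334 samples were below every control sample. With the combination it fell by 1.90 ± 0.23 on the log2 scale (edgeR adjusted p = 5.9e-06). With SB525334 alone it was -0.68 ± 0.22 (adjusted p = 0.0635).

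Col15a1, a multiplexin found beneath the basement membranes of vessels and muscle, had 137.3, 145.7, 110.4 and 107.8 CPM in control, 87.6, 60.2, 72.4 and 138.5 with SB525334, 56.1, 59.6, 97.7 and 110.5 with KN046, and 27.6, 20.1, 37.1 and 37.9 with both agents. Again the combination samples were below all 12 others, while the single-agent groups overlapped control. The log2 fold change was -2.03 ± 0.27 (edgeR adjusted p = 2.01e-05). The related Col18a1, the precursor of endostatin, did not pass, at -0.23 ± 0.16 (adjusted p = 0.424).

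Col4a4, which assembles with Col4a3 in the same trimer, had 1.14, 1.56, 0.862 and 0.523 CPM in control, 0.362, 0.358, 0.430 and 0.560 with SB525334, 2.13, 0.924, 0.894 and 1.40 with KN046, and 0.103, 0.276, 0.0546 and 0.236 with both agents. All combination samples were below all others. The log2 fold change was -2.57 ± 0.51 (edgeR adjusted p = 0.00132), from 13 counts against 86, a ratio of 16.2% (8.31% to 29.3%). For Col4a3 it was -3.05 ± 0.48 (adjusted p = 1.39e-04), from 7 counts against 67, or 11.2% (4.35% to 24.4%).

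These chains lie head to head on chromosome 1, and their annotated starts overlap by 104 bases. The strand setting of the read counting is not given in the sources used here, so reads in that overlap are uncertain. Among the abundant type IV chains, Col4a1 differed from control by -0.02 ± 0.18 on the log2 scale with the combination. The ratio of Col4a4 to Col4a1 per kilobase of canonical transcript was 0.000556 to 0.00121 in control, 0.000348 to 0.000518 with SB525334 and 4.33e-05 to 0.000269 with the combination, without overlap between these 3 groups. With KN046 it was 0.000550 to 0.00151, which overlapped control.

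Col12a1, a FACIT collagen of dense connective tissue that responds to load, had 40.6, 42.5, 25.1 and 25.1 CPM in control, 12.8, 7.13, 10.1 and 27.3 with SB525334, 32.9, 12.4, 41.3 and 31.2 with KN046, and 17.1, 8.83, 14.0 and 14.99 with both agents. The combination samples were below all control samples, and the control values split along the similar pairs. The log2 fold change was -1.28 ± 0.38 (edgeR adjusted p = 0.0360). With SB525334 alone it was -1.22 ± 0.38 and just missed the threshold (adjusted p = 0.0515), and 5 of 10 alternatives called it lower there. With each control pair summed to 1 sample the combination call was lost (adjusted p = 0.132), and it was also lost in 5 of the 16 fits that left out 1 sample, those without control sample 1 or 2 or combination sample 2, 3 or 4 (adjusted p up to 0.134).

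Col1a2 had 1160, 1187, 1157 and 1152 CPM in control, 923.4, 981.2, 782.4 and 1102 with SB525334, 889.7, 744.4, 1054 and 1129 with KN046, and 841.7, 664.2, 928.6 and 709.4 with both agents. The control samples lay within a narrow range above every treated sample. The change was small, at -0.57 ± 0.14 on the log2 scale (edgeR adjusted p = 0.0119), and was lost with the control pairs summed (adjusted p = 0.0821) and without combination sample 2 or 4. The estimate for Col3a1 in the same comparison was 0.46 ± 0.20 (adjusted p = 0.189).

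**Figure D4:**
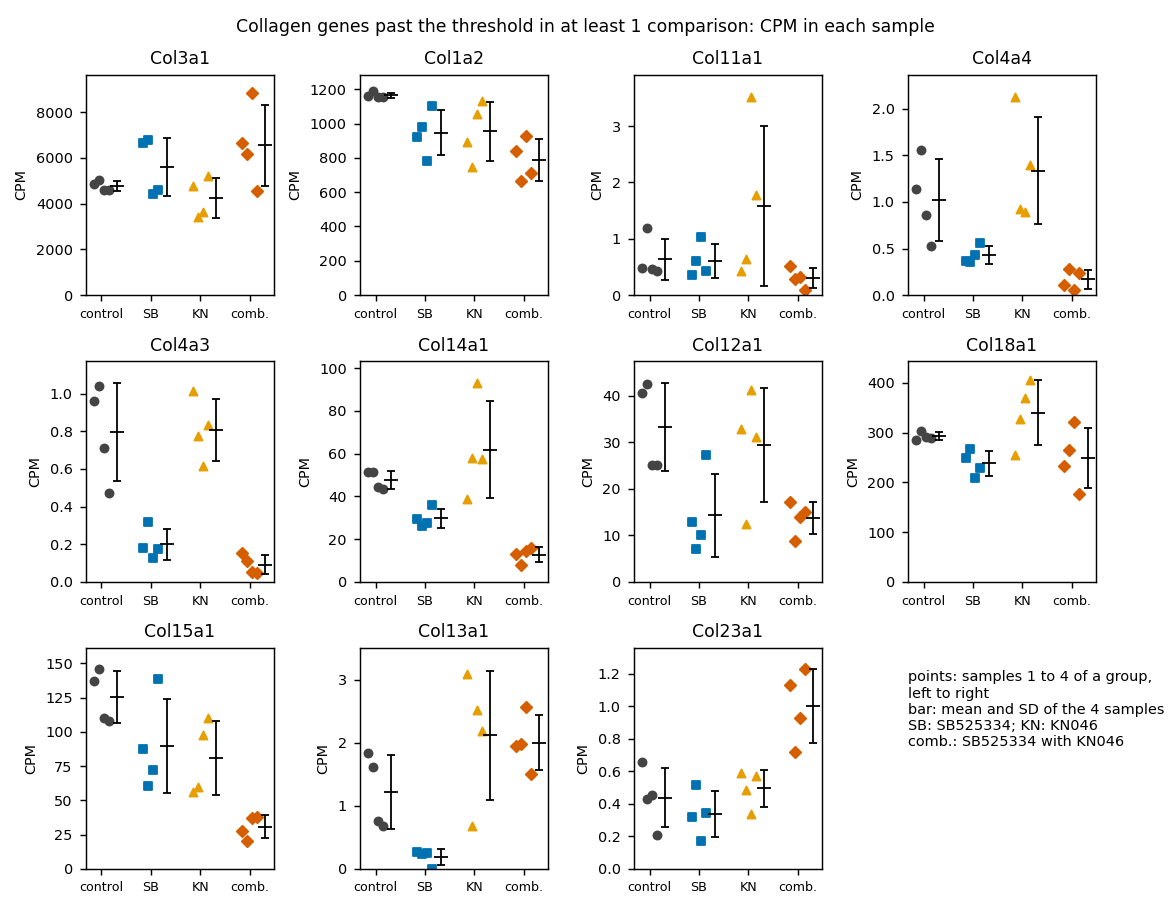
CPM in each sample for the 11 collagen genes that passed in at least 1 of the 6 comparisons. Points are samples 1 to 4 of a group from left to right and bars are the mean and SD (n = 4). The combination samples of Col14a1, Col15a1 and Col4a4 lie below all other samples, and the SB525334 samples of Col13a1 lie below all other samples.

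Liver, vessel and epithelial markers moved with the combination in the same comparison. All 15 hepatocyte markers were lower, as were 6 of 7 tumor epithelial, 5 of 9 stellate, 3 of 9 endothelial and 3 of 7 sinusoidal endothelial markers, and 1 of 8 leukocyte markers was higher. The tumor epithelial markers summed to 5.84 to 14.1 CPM with the combination against 147.7 to 247.5 in control. Whether their RNA came from tumor or liver cells was not tested. A list of 7 proliferation markers summed to 1310 to 1404 CPM with the combination against 1496 to 1787 in control, and edgeR called 1 of them lower. Their estimates were below 0 for 3 and above 0 for 4, with a median log2 fold change of 0.01. The proliferation sum therefore did not represent its list. Of the 9 stellate genes, 6 had estimates below 0 and 3 above 0, with 0 called higher. Among those below 0, Lrat, which stores retinol as ester, was at 0.0372 CPM against 2.35 in control, and Reln at 0.156 against 11.5. The summed level of the 9 stellate markers, which is mostly Ecm1, was 948.3 to 976.6 CPM with the combination and 875.2 to 963.7 in control, so the sum did not follow those genes. The 9 endothelial markers summed to 103.7 to 121.6 CPM against 107.6 to 232.8, and the 7 sinusoidal markers to 239.3 to 252.4 against 208.4 to 413.7. Of 13 fibroblast markers, 2 were lower, Lum and Postn, but 9 had estimates above 0 and 4 below, with a median log2 fold change of 0.20. At an unadjusted p under 0.05 in edgeR, 3 fibroblast markers were lower and 2 higher. The 7 mesothelial markers summed to 121.3 to 178.1 CPM against 138.6 to 150.6, and of the 5 tested edgeR called 0, with 3 lower at an unadjusted p under 0.05. The part of these cells in the collagen results was not tested.

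Against KN046 alone, the combination had 7 members lower and 1 higher of 35 tested. That is 22.9% in either direction, where 24.4% of all genes passed. By direction, 20.0% of the members were lower against 14.5% of all genes. The 1 higher member stands against 9.89% of all genes. Samples did not overlap for 5 lower members and 1 higher, against 12.4% and 7.9% of all genes. The median log2 fold change was -0.22 over the collagens and 0.00 over all genes. The lower members Col14a1 (-2.27 ± 0.23), Col15a1 (-1.40 ± 0.27), Col4a3 (-3.07 ± 0.49), Col4a4 (-2.95 ± 0.50) and Col12a1 (-1.10 ± 0.38) had edgeR adjusted p of 7.74e-07, 0.00102, 1.46e-04, 3.19e-04 and 0.0444. The Col12a1 call was lost in 9 of 16 fits that left out 1 sample (adjusted p up to 0.134) and with the control pairs summed (0.0577). All 15 hepatocyte markers were lower here too, with 6 of 7 tumor epithelial, 5 of 9 stellate, 5 of 9 endothelial and 4 of 7 sinusoidal endothelial markers. Of 13 fibroblast markers 2 were lower and 2 higher, and 2 of 8 leukocyte and 1 sinusoidal marker were higher. The part of these cells was not tested. This comparison shares its combination samples with that against control.

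The remaining lower members were a minor fibrillar chain and the second multiplexin. Col11a1, a chain of cartilage fibrils, had 0.481, 1.18, 0.457 and 0.418 CPM in control, 0.362, 0.597, 1.03 and 0.431 with SB525334, 0.426, 0.632, 3.52 and 1.77 with KN046, and 0.514, 0.276, 0.328 and 0.0943 with both agents. KN046 samples 3 and 4 stood above all others, and the 2 groups overlapped at their edges. The log2 fold change was -2.37 ± 0.66 (edgeR adjusted p = 0.0156), which became 0.0751 without KN046 sample 3, and the call was also lost without combination sample 4.

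Col18a1 had 285.8, 303.7, 291.7 and 288.2 CPM in control, 248.2, 266.3, 209.0 and 229.5 with SB525334, 255.7, 328.2, 369.7 and 406.4 with KN046, and 232.6, 264.2, 322.0 and 177.4 with both agents. KN046 and combination samples overlapped. The difference of -0.45 ± 0.16 on the log2 scale was at the threshold (edgeR adjusted p = 0.0470) and was lost in 13 of 16 fits that left out 1 sample (adjusted p up to 0.156, without combination sample 4) and with the control pairs summed (0.0685).

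The higher member was Col3a1. It had 4854, 5011, 4602 and 4604 CPM in control, 6641, 6767, 4414 and 4590 with SB525334, 4748, 3405, 3643 and 5201 with KN046, and 6656, 6161, 8821 and 4553 with both agents. Of the combination samples, 3 exceeded every KN046 sample and 1 lay within their range. The log2 fold change was 0.62 ± 0.20 (edgeR adjusted p = 0.0337). It was lost without KN046 sample 2 or 3 or combination sample 3 (adjusted p up to 0.122) and by limma.

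Adding KN046 to SB525334 moved 4 members. Against SB525334 alone, the combination had Col14a1 and Col15a1 lower and Col13a1 and Col23a1 higher, 4 of 35 tested, where 3.57% of all genes passed, 3.03% lower and 0.544% higher. The median log2 fold change was -0.06 over the collagens and 0.01 over all genes. Samples did not overlap for 5 lower and 4 higher members, against 4.62% and 2.43% of all genes. Col14a1 differed by -1.22 ± 0.23 and Col15a1 by -1.55 ± 0.27 (edgeR adjusted p = 0.00279 and 0.00142). Col13a1 was higher by 3.34 ± 0.59 (adjusted p = 0.00178), with 18 counts under SB525334 against 153, a ratio of 9.69% (5.59% to 15.8%). Hepatocyte markers were lower here as well, 14 of 15, with 3 of 9 stellate and 3 of 7 tumor epithelial markers. Also lower were 1 of 13 fibroblast and 1 of 7 sinusoidal endothelial markers. Higher were 1 other sinusoidal and 1 of 8 leukocyte markers, and the part of these cells was not tested.

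Col23a1, a transmembrane collagen of epithelial cell surfaces, had 0.656, 0.426, 0.457 and 0.209 CPM in control, 0.316, 0.518, 0.172 and 0.345 with SB525334, 0.586, 0.486, 0.335 and 0.572 with KN046, and 1.13, 0.717, 0.928 and 1.23 with both agents. All combination samples were above all others. The log2 difference from SB525334 alone was 1.55 ± 0.40 (edgeR adjusted p = 0.0376), which was lost in 9 of 16 fits that left out 1 sample (adjusted p up to 0.129, without combination sample 4) and with the control pairs summed (adjusted p = 0.0548). Against control it was 1.17 ± 0.40 (adjusted p = 0.0705).

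For Col14a1 the effect of SB525334 differed with and without KN046. The interaction, which is the SB525334 effect in the presence of KN046 minus that in its absence, was -1.59 ± 0.31 on the log2 scale (edgeR adjusted p = 0.00634). It was the only 1 of 35 members past the threshold, where 4.28% of all genes passed, 2.55% in the negative direction. Markers called in the same negative direction were 14 of 15 hepatocyte, 4 of 9 stellate, 3 of 7 tumor epithelial and 1 of 7 sinusoidal endothelial genes, while 3 of 8 leukocyte and 1 of 13 fibroblast markers were positive, and their part was not tested. No member passed in the positive direction by edgeR or limma, 2 were positive at an unadjusted p under 0.05, and DESeq2 called Col13a1. The estimate for Col13a1 was 2.56 ± 0.77 (edgeR adjusted p = 0.0750). For Col15a1 it was -0.92 ± 0.37 (adjusted p = 0.207). The median was -0.24 over the collagens and 0.01 over all genes.

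The proportion of type III to type I chains was higher with the combination than in control in every sample. Among chains of 1 trimer, the ratio of Col4a1 to Col4a2, per kilobase of the canonical transcript, was 1.41 to 1.77 over all samples, and that of Col6a1 to Col6a2 was 1.71 to 2.15. Col1a1 to Col1a2 was 0.926 to 1.14 in control, 0.778 to 2.09 with SB525334, 0.640 to 2.04 with KN046 and 0.657 to 1.15 with the combination, so its groups overlapped. The ratio of Col3a1 to Col1a2 was 3.94 ± 0.122 in control, 5.75 ± 1.33 under SB525334, 4.33 ± 0.747 under KN046 and 7.97 ± 1.37 under both. The combination samples, at 6.18 to 9.15, did not overlap control, at 3.83 to 4.07, or KN046, at 3.33 to 5.14, but overlapped SB525334, at 4.01 to 6.93. The ratio of Col3a1 to Col1a1 was 3.57 to 4.14 in control, 3.17 to 8.91 under SB525334, 2.15 to 8.03 under KN046 and 6.63 to 9.41 under both. That of Col5a1 to Col5a2 was 2.33 to 2.49, 2.16 to 2.85, 2.2 to 3.09 and 2.66 to 3.41 in the same order. For both ratios the combination samples were above control and overlapped each single agent. These ratios were chosen as values and carry no test.

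**Figure D5:**
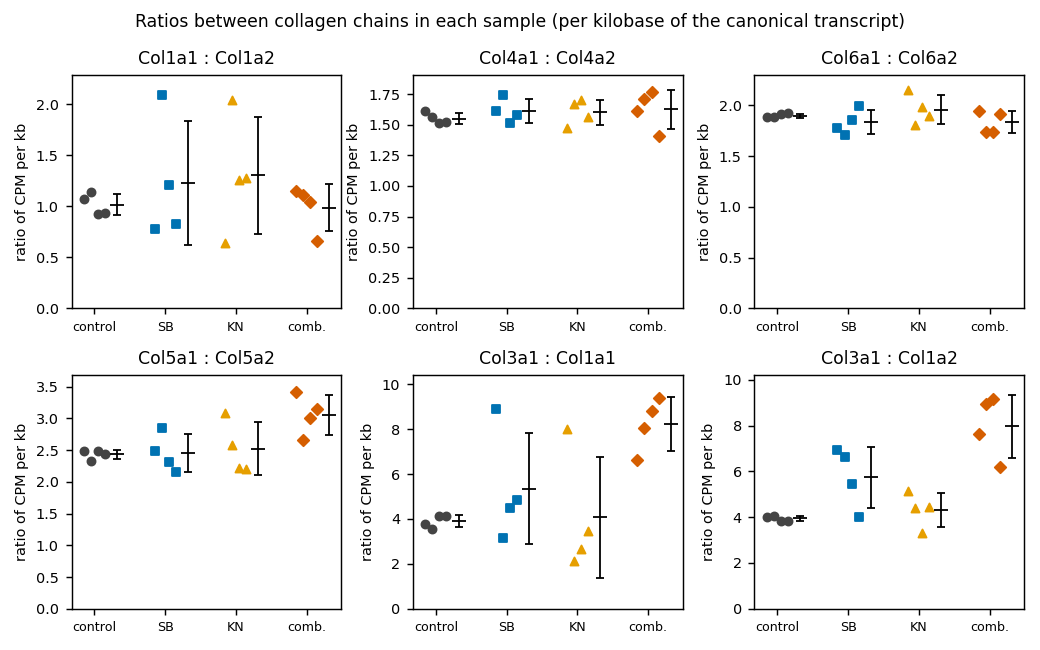
Ratio of 2 collagen chains in each sample, in CPM per kilobase of canonical transcript, for 6 pairs. Points are samples 1 to 4 of a group from left to right and bars are the mean and SD (n = 4). In the Col3a1 to Col1a2 panel the combination samples, 6.18 to 9.15, stand above the control samples, 3.83 to 4.07, and overlap the SB525334 samples, 4.01 to 6.93, while Col4a1 to Col4a2 stays between 1.41 and 1.77 throughout.

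The other 18 tested members passed in no comparison. Group means in CPM ranged from 360.4 to 420.9 for Col5a3, from 194.5 to 238.4 for Col5a2, from 17.7 to 27.6 for Col27a1, from 7.60 to 11.95 for Col11a2 and from 0.640 to 1.51 for Col2a1 among the fibrillar genes. In type IV, Col4a2 ranged from 417.5 to 538.5 and Col4a5 from 10.8 to 14.0. Among the FACIT members, Col16a1 ranged from 423.1 to 512.3, Col9a3 from 6.04 to 9.14, Col20a1 from 1.81 to 2.63 and Col22a1 from 0.308 to 0.720. The type VI chain Col6a4 ranged from 11.7 to 20.8 and Col6a5 from 0.234 to 1.21. Of the rest, Col8a1 ranged from 66.8 to 86.8, Col8a2 from 0.292 to 0.401, Col17a1 from 1.42 to 1.74, Col7a1 from 116.7 to 165.0 and Col28a1 from 1.32 to 2.85. Col22a1 and Col6a4 had the largest upward estimates against control without passing, at 1.23 and 0.82 (edgeR adjusted p = 0.0685 and 0.121). The remaining 9 members had too few counts for the filter: Col9a1, which had 0 counts in every sample, Col9a2, Col19a1, Col4a6, Col6a6, Col24a1, Col10a1, Col25a1 and Col26a1. In all, 11 of the 35 tested passed in at least 1 comparison, or 31.4%, against 28.4% of all genes.

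Genes that build, link, bind and degrade collagen passed the test about as often as genes in general. Of 54 such genes on a list of roles, 50 were tested and 13 passed in at least 1 comparison, where 28.4% of all genes did. With the combination against control 5 were lower and 1 higher, 6 of 50 where 11.1% of all genes passed. The lower genes included Lox, which oxidises lysine to start cross-links, at 13.1 ± 1.78 CPM against 36.0 ± 5.85 (SD, n = 4) and a log2 fold change of -1.46 ± 0.35 (edgeR adjusted p = 0.00830). The integrin chains Itga11 and Itga1, both of collagen receptors, fell by 1.16 ± 0.35 and 0.83 ± 0.23 on the log2 scale. Mia3, which loads procollagen into export vesicles, and P4ha3, a catalytic chain of prolyl 4-hydroxylase, fell by 0.45 ± 0.13 and 0.50 ± 0.15. P3h4, a member of the endoplasmic reticulum complex that modifies collagen lysines, was higher by 0.49 ± 0.13 (adjusted p = 0.0122). With the control pairs summed, 1 machinery gene passed in this comparison.

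Mmp8 was lower with either agent alone. With both agents its 4 samples, at 1.255 to 5.89 CPM, also lay below all control samples, at 6.17 to 7.53. That difference did not pass in edgeR. With SB525334 against control, Mmp8, the neutrophil collagenase, was lower at 1.73 ± 0.637 CPM against 6.87 ± 0.590, and Mmp13, another collagenase, at 8.74 ± 3.51 against 21.0 ± 10.3 (edgeR adjusted p = 0.00310 and 0.0457). S100a8, a neutrophil gene of the leukocyte markers, was also lower, at 0.765 CPM against 27.8 (adjusted p = 0.00624), and was at 2.13 CPM with KN046 (adjusted p = 0.0619), and its part in the Mmp8 result was not tested. Itga11 and Tgm2, a transglutaminase that links matrix proteins, were the other genes of the list that fell, 4 of 50 where 9.61% of all genes passed. With KN046 against control, Mmp8 was lower by 1.66 ± 0.42 on the log2 scale and Lair1, an inhibitory collagen receptor of leukocytes, by 0.85 ± 0.23 (adjusted p = 0.0393 and 0.0460), 2 of 50 where 4.0% of all genes passed. The interaction was positive for Mmp8 at 2.41 ± 0.59 and Mmp13 at 2.15 ± 0.55 (adjusted p = 0.0255 and 0.0319), 2 of 50 against 4.28%. The S100a8 interaction was positive too, at 7.83 on the log2 scale (adjusted p = 0.00749). With the control pairs summed, 1 machinery gene passed for SB525334 and 0 for KN046 and the interaction. Against KN046 alone the combination had 4 of the list lower and 3 higher, 7 of 50 where 24.4% of all genes passed. Against SB525334 alone it had P4ha3 lower, by 0.70 ± 0.15 on the log2 scale, and the collagen receptor chain Itga2 higher, by 1.30 ± 0.33, 2 of 50 where 3.57% passed.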

How the data were processed

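Total RNA of liver metastases was sequenced as mRNA libraries, and per the labels the reads were trimmed with cutadapt 2.7, aligned to GRCm39 with HISAT2 2.2.1 and counted per gene with HTSeq 2.0.4. The authors deposited raw counts for each sample, which were used for the main tests. They also deposited normalized values, held here as a score, and 100.0% of these lay within 1 of the raw count divided by a per-sample factor (the notes name DESeq2 1.38.3). Strand and multiple-alignment settings are not given in the sources used here, so overlapping genes such as Col4a1 and Col4a2, whose starts overlap by 318 bases, are uncertain. Of 21959 identifiers, 21770 matched a GENCODE M39 symbol. This annotation may differ in release from the authors'.

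Testing of the counts used edgeR 4.0.16 (R 4.3.3). Low genes were removed by filterByExpr at its minimum count of 10, libraries were scaled by TMM, and 1 quasi-likelihood model with a mean per group covered all 16 samples, with Benjamini-Hochberg adjustment over 13968 genes with a threshold of 0.05. Levels are CPM on the TMM scale, and SE belongs to the log2 fold change. Members named individually are those past the threshold in at least 1 of 6 comparisons and the 8 with the highest CPM per kilobase of exon union. Genes, classes, roles and markers were chosen with earlier results of these data known. Comparisons with control share the control samples. Alternatives were DESeq2 1.42.0, limma 3.58.1 on log2(normalized value + 1), other scalings and filters, a replicate block, summed control pairs and leaving out each sample. Lengths of canonical transcripts were added after seeing the data. Depth was 18368994 to 23877131 counts per sample, and counting intervals (95%) cover counting error only. The test code was checked on simulated counts. Protein sequences and promoters were not used here.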

Additional observations from a re-analysis of the deposited data

Results flagged for a closer look

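Among the 17 collagen genes described by sample, 4 of the 68 groups tested had a sample far from the other 3, where chance gives about 1 in 20, or 3.4. Col11a1 in control sample 2 was 1.18 CPM, against 0.418 to 0.481 in the rest of its group. Col13a1 in SB525334 sample 4 was 0.0 CPM, against 0.239 to 0.271. Col1a1 in SB525334 sample 2 was 2273 CPM, against 794.7 to 1047. Col6a2 in control sample 2 was 1223 CPM, against 1161 to 1168.

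The effect of SB525334 on Col14a1 differed with and without KN046 by -1.59 on the log2 scale, tested as an interaction in edgeR. The call held in 9 of 9 alternatives that could give it and in 16 of 16 fits that left out 1 sample. In the same interaction 14 of 15 hepatocyte, 4 of 9 stellate, 3 of 7 tumor epithelial and 1 of 7 sinusoidal endothelial markers were also called negative and 3 of 8 leukocyte and 1 of 13 fibroblast markers positive, and their part was not tested.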

How the results depend on the processing

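No collagen call changed direction under any alternative. The calls for Col14a1, Col15a1, Col4a3, Col4a4 and Col13a1 held in each alternative and each fit leaving out 1 sample that tested them. Weak members limit the rest: a mean of at least 1 CPM leaves Col4a3 and Col4a4 untested. The cause of the changes below was not tested, other than by fewer genes or samples entering the fit. The fit on only the 2 groups compared gives no interaction.

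With a mean of at least 1 CPM, lower collagen calls were 1 (2 in the main fit) for SB525334 against control and 4 (7) for the combination against KN046, and machinery calls for SB525334 against control were 2 (4). DESeq2 gave 4 lower for SB525334 against control and 1 higher for the interaction, and 6, 12 and 5 machinery calls for KN046 against control, combination against KN046 and interaction. With the study's thresholds (unadjusted p under 0.05 and over 2-fold), lower calls were 5 for SB525334 against control, 4 for the combination against SB525334 and 5 for the interaction. Higher calls were then 1 for KN046 and 2 for the combination against control and 2 for the interaction, and machinery calls were 3, 2, 4 and 5 for the combination against control, KN046 and SB525334 and the interaction. The call of Col3a1 was lost on only the 2 groups compared and in limma (0 higher for both). Higher calls of the combination against SB525334 were 1, in place of 2, with no low-count filter, at least 1 CPM, library size alone, only the 2 groups, the replicate block and summed control pairs. Machinery calls with library size alone were 1 each for KN046 against control, combination against SB525334 and interaction. On only the 2 groups they were 7, 1, 3 and 1 for SB525334 and KN046 against control and the combination against KN046 and SB525334. With control pairs summed they were 1, 0, 1 and 0 for SB525334, KN046 and the combination against control and the interaction.

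Replicate numbers did not pair the samples: correlations of same-numbered samples' deviations ran from -0.37 to 0.41, and 6 of 16 samples were closest to their own number. With the replicate block, lower collagen calls were 3, 0, 6, 6, 2 and 1 in the order SB525334, KN046 and combination against control, combination against KN046 and SB525334, and interaction, and machinery calls fell to 1 for KN046 against control, 1 for the combination against SB525334 and 1 for the interaction.

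Leaving out 1 sample, lower calls in that order ran from 2 to 3, 0 to 0, 4 to 6, 4 to 10, 2 to 2 and 1 to 1. Higher calls ran from 0 to 0, 0 to 2, 0 to 1, 0 to 1, 1 to 2 and 0 to 0. Machinery calls ran from 1 to 6, 0 to 5, 1 to 7, 4 to 10, 1 to 2 and 0 to 3.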
